A study of Mus musculus with 4 samples.

Results

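The transcripts of 10 genes that mark eosinophils, basophils and mast cells were followed in the bone marrow of obese mice with and without exercise. The genes were chosen by name, with earlier results of these data known. Prg2, Prg3, Epx, Ear1, Ear2 and Il5ra belong to the eosinophil, and Mcpt8, Prss34, Cpa3 and Fcer1a to the basophil and the mast cell. They are 10 of 55401 genes quantified, and all 10 reached the minimum for testing, a mean of 0.1 FPKM over the 4 libraries, as 18596 genes did in all. FPKM is a level corrected for transcript length and library depth, and all values below were also scaled between the libraries.

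The marrow came from the tibia of male wild-type C57/B6 mice that were put on a high-fat diet (HFD) at 8 weeks of age. The diet first made the mice obese, and exercise began only after this. The Ob group stayed on the HFD without exercise. The Ob + Exe group ran on a treadmill at moderate intensity for 12 weeks on the same diet. Both groups were obese, so no lean mice enter any comparison, and the question was what exercise changed in the marrow. Each group had 2 RNA-seq libraries, called Ob 1, Ob 2, Ob + Exe 1 and Ob + Exe 2 below. The p-values rest only on the spread between these libraries. In limma this is the spread of the gene itself combined with that of other genes of like level. The labels also name the samples as mesenchymal stem cells and fibroblasts. The erythroid list summed to 30374 to 31494 FPKM and the list for stromal cells and fibroblasts to 111 to 164 FPKM. Of the latter, Cxcl12 was at 89.3 to 143 FPKM and held most of the sum, and Col1a1 was at 1.18 to 3.13 FPKM. Since the erythroid sum was far higher, the libraries are called whole marrow here. Depth was 44310505 to 53038186 read equivalents per library, a read equivalent being coverage times length divided by the read length of 150 bases.

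Eosinophils form in the marrow from granulocyte progenitors under the transcription factors GATA1 and C/EBP and the cytokine IL-5. They fill their granules with cationic proteins, namely major basic protein, eosinophil peroxidase and ribonucleases, whose mRNAs are made mostly while the cell is still a precursor. Basophils also mature in the marrow and carry proteases and the high-affinity receptor for IgE. Mast cells leave the marrow as progenitors and acquire most of their granule proteases in tissues.

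Within the marrow the basophil proteases and Ear2 had the highest levels of the 10 genes in FPKM. Prss34 lay at 68.7 to 124 FPKM, Mcpt8 at 58.7 to 92.4 FPKM and Ear2 at 38.5 to 65.7 FPKM, and the range of Mcpt8 overlapped those of both others, while each Prss34 value lay above each Ear2 value. Prg2 at 13.7 to 52.9 FPKM, Fcer1a at 6.08 to 19.5 FPKM and Cpa3 at 5.76 to 13.8 FPKM came next, and their ranges overlapped as well. The lowest levels were those of Ear1 at 0.668 to 12.3 FPKM, Epx at 0.878 to 7.66 FPKM, Prg3 at 0 to 2.87 FPKM and Il5ra at 0.357 to 0.548 FPKM. Prss34 stood above 95.6% to 97.6% of all genes tested in each library, and Il5ra above 21.1% to 25.5%. In marrow as a whole, fewer cells of a type and less RNA per cell cannot be told apart.

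**Figure D1:**
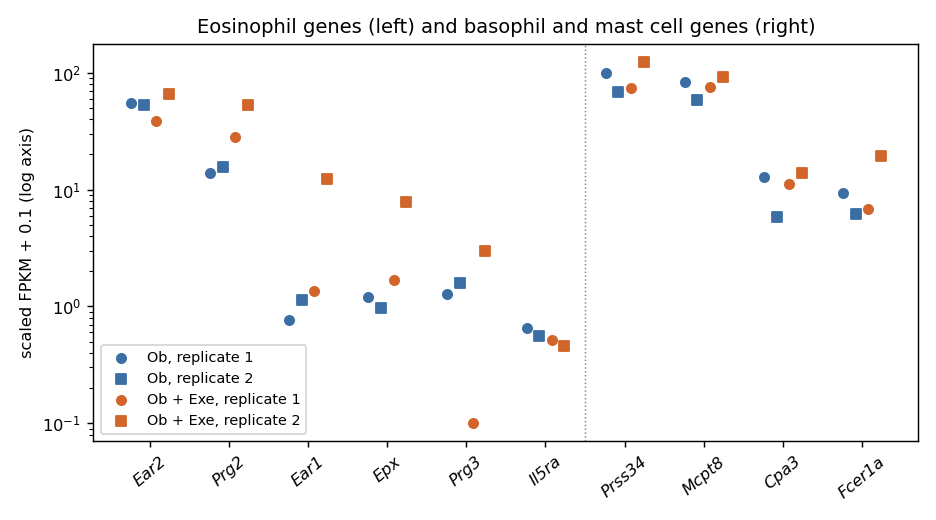
Level of each of the 10 genes in each of the 4 libraries, in scaled FPKM plus 0.1 on a log axis, with eosinophil genes left and basophil and mast cell genes right of the dotted line. Each point is 1 library, blue for Ob and orange for Ob + Exe, with circles for replicate 1 and squares for replicate 2, and both Ob + Exe points lie above both Ob points for Prg2, Epx and Ear1 and below them for Il5ra.

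Prg2 (ENSMUSG00000027073.5, chr2:84980461-84983632 on the plus strand of GRCm38) was the one gene of the 10 called higher in Ob + Exe. The call rests on the unadjusted p-value and did not hold after correction over all genes tested. Prg2 encodes major basic protein, the main component of the crystalline core of the eosinophil granule. Its level was 13.7 FPKM in Ob 1, 15.5 FPKM in Ob 2, 28.2 FPKM in Ob + Exe 1 and 52.9 FPKM in Ob + Exe 2, from 779, 863, 1378 and 2443 read equivalents. Both exercised libraries lay above both Ob libraries, and the 2 exercised libraries stood further from each other than the 2 Ob libraries did. The mean was 14.6 ± 1.32 FPKM (SD, n = 2) in Ob and 40.55 ± 17.5 FPKM in Ob + Exe, a ratio of means of 2.78. In limma, on log2(FPKM + 0.1), the log2 fold change was 1.40 with a standard error of 0.337 and an unadjusted p of 0.00662, the 116th smallest of all genes tested, and the Benjamini-Hochberg adjusted p was 0.96. This standard error also draws on other genes of like level. The 2 libraries of a group differed by 0.184 in Ob and 0.908 in Ob + Exe on the log2 scale. The call was lost without Ob 1, where the log2 fold change was 1.30 (limma unadjusted p = 0.154), and without Ob 2, where it was 1.48 (limma unadjusted p = 0.121). It was also lost without Ob + Exe 2, where the log2 fold change was 0.94 (limma unadjusted p = 0.0184), and kept without Ob + Exe 1, where it was 1.85.

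Prg3 (ENSMUSG00000027072.13, chr2:84988215-84993886, plus strand) is the gene next to Prg2 and encodes a second, related form of major basic protein. The gap between both genes is 4583 bases. Prg3 was at 1.18 FPKM in Ob 1, 1.49 FPKM in Ob 2 and 2.87 FPKM in Ob + Exe 2, and it was listed at 0 in Ob + Exe 1. The 3 libraries with a value held 52, 66 and 109 read equivalents. The exercised libraries were thus the lowest and the highest of the 4, on either side of the Ob libraries. The fitted log2 fold change of -1.39 is set by the pseudocount, since it was -0.24 with a pseudocount of 1 and -2.98 with a smaller one, and it is not read as a change. Reads were divided between 2 annotated transcripts, of which ENSMUST00000135939.1 took 64.0%, 59.5% and 55.7% of the gene's FPKM in the 3 libraries. Prg2 in Ob + Exe 1, where its neighbour was listed at 0, had 1378 read equivalents.

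Epx (ENSMUSG00000052234.2, chr11:87864000-87875536, minus strand) encodes eosinophil peroxidase, the heme enzyme of the granule matrix. Its level was 1.11 FPKM in Ob 1, 0.878 FPKM in Ob 2, 1.60 FPKM in Ob + Exe 1 and 7.66 FPKM in Ob + Exe 2, from 203, 157, 251 and 1135 read equivalents. The groups did not overlap, but Ob + Exe 1 was near the Ob libraries, and Ob + Exe 2 was 4.80 times Ob + Exe 1. The means were 0.995 ± 0.164 FPKM in Ob and 4.63 ± 4.29 FPKM in Ob + Exe (SD, n = 2 each). The log2 fold change was 1.74 with a standard error of 0.75, which did not pass the test (limma unadjusted p = 0.0617, Benjamini-Hochberg adjusted p = 0.96). Without Ob + Exe 2 the log2 fold change was 0.63, and without Ob + Exe 1 it was 2.83. The ratio of Prg2 to Epx in FPKM was 12.3 in Ob 1, 17.7 in Ob 2, 17.6 in Ob + Exe 1 and 6.91 in Ob + Exe 2, so the 2 granule protein genes kept a like ratio in 3 libraries and a lower one in the last.

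Ear1 and Ear2 encode eosinophil-associated ribonucleases, products of a rodent gene family that expanded from the ancestor of human eosinophil-derived neurotoxin and eosinophil cationic protein. Ear1 (ENSMUSG00000072601.4, chr14:43818765-43875517, minus strand) and Ear2 (ENSMUSG00000072596.4, chr14:44102654-44103534, plus strand) lie on the same chromosome in opposite directions. Their sequences are shown because the 2 genes behaved differently across the libraries although they are close copies. The first 120 coding bases, from the GENCODE vM21 transcripts, are given 5′ to 3′ beside those of Ear6, a further member of the family, with bases that differ from Ear1 in capitals.
Ear1: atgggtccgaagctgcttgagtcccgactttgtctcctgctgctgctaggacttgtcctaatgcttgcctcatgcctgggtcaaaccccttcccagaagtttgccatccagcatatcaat
Ear2: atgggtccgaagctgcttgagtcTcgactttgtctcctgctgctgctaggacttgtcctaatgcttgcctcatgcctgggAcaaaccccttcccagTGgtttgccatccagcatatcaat
Ear6: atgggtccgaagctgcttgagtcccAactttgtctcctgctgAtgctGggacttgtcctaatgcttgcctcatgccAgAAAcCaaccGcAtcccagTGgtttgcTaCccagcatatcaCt
Over the whole coding sequence Ear1 (465 bases) and Ear2 (468 bases) were identical at 445 of 465 aligned bases (95.7%), with a longest identical run of 96 bases. Of the 564 windows of 150 bases in the Ear1 transcript shown, 0 were found in the Ear2 transcript, so a read of this length within either transcript differs between the 2 genes at 1 base or more. How the alignment placed reads with mismatches or shorter reads was not tested, and the division of reads between Ear1 and Ear2 is uncertain to that extent.

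Ear1 was at 0.668 FPKM in Ob 1, 1.03 FPKM in Ob 2, 1.27 FPKM in Ob + Exe 1 and 12.3 FPKM in Ob + Exe 2, from 32, 49, 53 and 484 read equivalents. The groups did not overlap, but 3 libraries were close together and Ob + Exe 2 was 9.74 times Ob + Exe 1. The log2 fold change was 2.14 with a standard error of 1.02, which did not pass the test (limma unadjusted p = 0.0833, Benjamini-Hochberg adjusted p = 0.96), and it was 0.55 without Ob + Exe 2 and 3.73 without Ob + Exe 1. Ear2 transcripts are also found in other myeloid cells. Ear2 was at 55.2 FPKM in Ob 1, 52.7 FPKM in Ob 2, 38.5 FPKM in Ob + Exe 1 and 65.7 FPKM in Ob + Exe 2. Here the 2 exercised libraries were the lowest and the highest, and the log2 fold change was -0.10 with a standard error of 0.295. The ratio of Ear2 to Ear1 in FPKM was 82.6 in Ob 1, 51.0 in Ob 2, 30.4 in Ob + Exe 1 and 5.33 in Ob + Exe 2.

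Il5ra (ENSMUSG00000005364.11, chr6:106710357-106749037, minus strand) encodes the ligand-binding chain of the IL-5 receptor, which marks eosinophil progenitors and eosinophils. It was at 0.548 FPKM in Ob 1, 0.456 FPKM in Ob 2, 0.419 FPKM in Ob + Exe 1 and 0.357 FPKM in Ob + Exe 2, from 133, 108, 88 and 70 read equivalents. Both exercised libraries lay below both Ob libraries, the opposite of Prg2, Epx and Ear1. The distance was small beside the standard error from limma, which also draws on other genes of like level. The log2 fold change was -0.30, with a standard error of 0.582 and a limma unadjusted p of 0.623. Replicate 2 differed from replicate 1 by -0.220 in Ob and -0.185 in Ob + Exe on the log2 scale. Il5ra was also the one gene of the 10 that was lowest in Ob + Exe 2, the library in which the other 9 were highest.

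The 4 basophil and mast cell genes did not pass the test, and their groups overlapped in each case. Mcpt8 (ENSMUSG00000022157.8, chr14:56082166-56085273, minus strand) encodes a serine protease that in the mouse marks basophils. It was at 83.7 FPKM in Ob 1, 58.7 FPKM in Ob 2, 75.7 FPKM in Ob + Exe 1 and 92.4 FPKM in Ob + Exe 2, with means of 71.2 ± 17.7 FPKM in Ob and 84.0 ± 11.8 FPKM in Ob + Exe (SD, n = 2 each) and a log2 fold change of 0.25 (standard error 0.254). Prss34 (ENSMUSG00000056399.2, chr17:25298394-25300165, plus strand) encodes a second serine protease of basophils. It was at 100.4 FPKM in Ob 1, 68.7 FPKM in Ob 2, 73.8 FPKM in Ob + Exe 1 and 124 FPKM in Ob + Exe 2, with a log2 fold change of 0.20 (standard error 0.330). The ratio of Prss34 to Mcpt8 in FPKM stayed within 0.975 to 1.34 over the 4 libraries.

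Cpa3 (ENSMUSG00000001865.2, chr3:20215620-20242181, minus strand) encodes carboxypeptidase A3, made by mast cells, their progenitors and basophils. It was at 12.7 FPKM in Ob 1, 5.76 FPKM in Ob 2, 11.1 FPKM in Ob + Exe 1 and 13.8 FPKM in Ob + Exe 2, with a log2 fold change of 0.52 and a standard error of 0.414. Ob 2 stood apart from the other 3 libraries, and without it the log2 fold change was -0.05. Fcer1a (ENSMUSG00000005339.10, chr1:173221284-173227214, minus strand) encodes the IgE-binding chain of the high-affinity receptor. It was at 9.31 FPKM in Ob 1, 6.08 FPKM in Ob 2, 6.74 FPKM in Ob + Exe 1 and 19.5 FPKM in Ob + Exe 2, with a log2 fold change of 0.60 and a standard error of 0.535. Ob + Exe 2 stood apart here, and without it the log2 fold change was -0.16. The summed level of the 4 genes was 206 FPKM in Ob 1, 139 FPKM in Ob 2, 167 FPKM in Ob + Exe 1 and 249 FPKM in Ob + Exe 2.

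**Figure D2:**
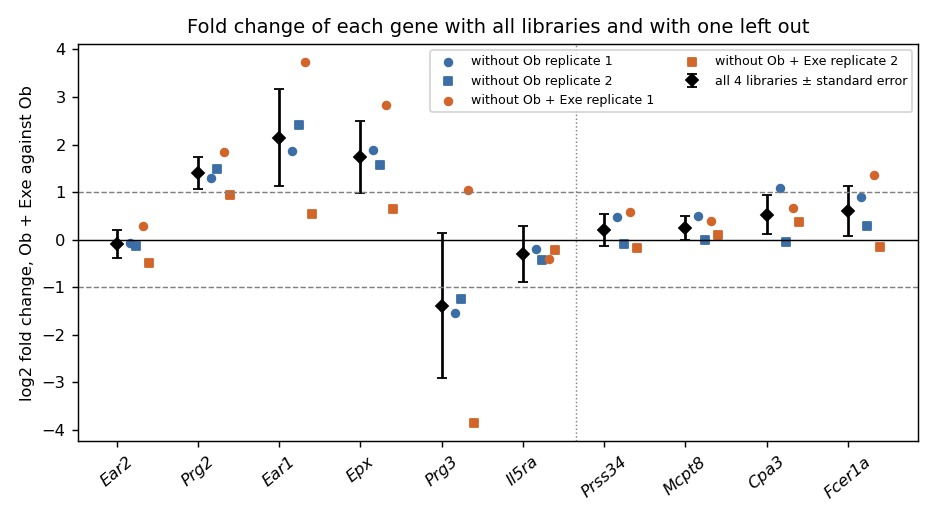
Log2 fold change of Ob + Exe against Ob for each of the 10 genes, as black diamonds with bars of 1 standard error from limma (n = 2 libraries a group) and as coloured points for the value without 1 library, and dashed lines mark 1 and -1. Prg2 at 1.40 is the one gene past both thresholds, Ear1 at 2.14 and Epx at 1.74 have wider bars, and the value of Prg3 is set by the pseudocount, since 1 exercised library is listed at 0.

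A gene was called when its unadjusted limma p was under 0.05 and its log2 fold change was beyond 1 in either direction. Of the 10 genes, 1 was called higher in Ob + Exe, beside 0.979% of all genes tested, and 0 were called lower, beside 2.73%. Both exercised libraries lay above both Ob libraries for 3 of the 10 genes, beside 14.0% of all genes tested, and below them for 1 of the 10, beside 18.7%. The median log2 fold change was 0.39 over the 10 genes and -0.02 over all genes tested. Over the 10 genes it was -0.03 without Ob + Exe 2 and also without Ob 2, 0.70 without Ob 1 and 0.86 without Ob + Exe 1. The Benjamini-Hochberg adjusted p from limma was 0.96 to 0.983 for the 10 genes. Of 18596 genes, 0 had an adjusted p under 0.05, while 933 had an unadjusted p under 0.05. These 933 genes are close to the fraction of 0.05 that this threshold passes when no gene differs between the groups. The unadjusted call of Prg2 is thus not by itself evidence of a change with exercise. An exact permutation of the 4 libraries cannot give a two-sided p below 0.333, and Prg2, Epx, Ear1 and Il5ra each had that value.

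The 2 exercised libraries stood apart for several of these genes. Ob + Exe 2 was the highest library for 9 of the 10 genes, as it was for 28.1% of all genes tested, and 9 of the 10 had a higher value there than in Ob + Exe 1, as 48.6% of all genes tested had. On the log2 scale the difference of Ob + Exe 2 from Ob + Exe 1 was 3.19 for Ear1, 2.19 for Epx, 1.52 for Fcer1a and 0.91 for Prg2, and a difference at least as high was found for 2.15%, 5.27%, 8.75% and 14.8% of all genes tested. The difference was 0.77 for Ear2, 0.74 for Prss34, 0.31 for Cpa3, 0.29 for Mcpt8 and -0.19 for Il5ra, and for Prg3 it rests on the value listed at 0. The 6 eosinophil genes summed to 72.3 FPKM in Ob 1, 72.0 FPKM in Ob 2, 69.9 FPKM in Ob + Exe 1 and 142 FPKM in Ob + Exe 2. Without Ear2, which is not limited to eosinophils, the sums were 17.2, 19.4, 31.4 and 76.2 FPKM. Prg2 held most of the FPKM of this smaller sum in each library.

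**Figure D3:**
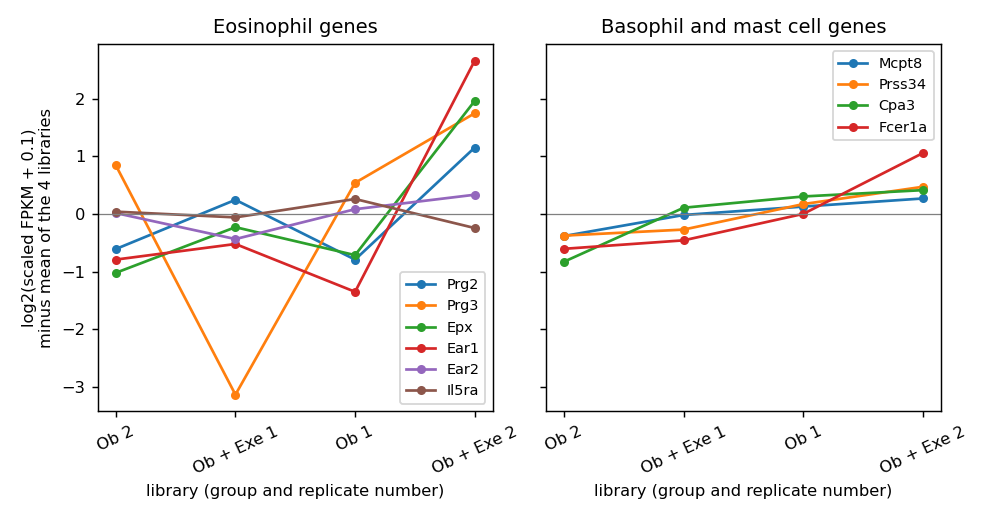
Log2 level of each of the 10 genes in each library minus that gene's mean log2 level over the 4 libraries, with the libraries in the order Ob 2, Ob + Exe 1, Ob 1, Ob + Exe 2. Lines join the values of 1 gene to guide the eye. The order was taken from the 4 basophil and mast cell genes, so their climb is by construction, and the 6 eosinophil genes do not climb in it.

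Mcpt8, Prss34, Cpa3 and Fcer1a ordered the 4 libraries in the same way, with Ob + Exe 2 highest, then Ob 1, then Ob + Exe 1, and Ob 2 lowest. The order was taken from these same values, with Mcpt8 as the pattern, so Mcpt8 has it by construction. It was found for 5.38% of all genes tested and for 0 of the 6 eosinophil genes. Among the further basophil and mast cell genes tested below, Cd200r3 and Il18r1 had it, and the others, such as Ms4a2 and Hdc, did not. The order cuts across the 2 groups. It was also the order of 7 of 9 late neutrophil granule genes, whose summed level was 49755 FPKM in Ob 1, 28492 FPKM in Ob 2, 36560 FPKM in Ob + Exe 1 and 66225 FPKM in Ob + Exe 2. The part of neutrophil content in these values was not tested.

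The sequences before the start of these 4 genes are shown because the genes shared this order. Each is the 250 bases before the transcription start in the RefSeq annotation of GRCm38.p6, 5′ to 3′ on the strand of the gene, with each GATA that has A or T before it and A or G after it, the letters GATA factors bind, in capitals together with those neighbours on either strand. They lie at chr14:56085198-56085447 (minus strand) for Mcpt8, chr17:25298144-25298393 (plus strand) for Prss34, chr3:20242182-20242431 (minus strand) for Cpa3 and chr1:173227230-173227479 (minus strand) for Fcer1a.
Mcpt8: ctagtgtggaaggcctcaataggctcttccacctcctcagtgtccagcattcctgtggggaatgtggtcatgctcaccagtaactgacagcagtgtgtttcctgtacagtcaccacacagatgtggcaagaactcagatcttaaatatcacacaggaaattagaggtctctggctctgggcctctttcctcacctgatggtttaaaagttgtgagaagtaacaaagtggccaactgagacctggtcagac
Prss34: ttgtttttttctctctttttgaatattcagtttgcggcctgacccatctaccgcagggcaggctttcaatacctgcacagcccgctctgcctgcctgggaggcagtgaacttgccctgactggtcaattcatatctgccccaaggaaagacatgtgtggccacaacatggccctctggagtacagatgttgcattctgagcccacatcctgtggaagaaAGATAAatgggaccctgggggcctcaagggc
Cpa3: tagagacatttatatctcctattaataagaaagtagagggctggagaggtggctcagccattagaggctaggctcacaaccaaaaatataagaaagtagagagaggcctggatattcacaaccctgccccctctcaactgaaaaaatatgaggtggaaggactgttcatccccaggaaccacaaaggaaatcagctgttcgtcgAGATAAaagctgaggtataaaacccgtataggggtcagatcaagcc
Fcer1a: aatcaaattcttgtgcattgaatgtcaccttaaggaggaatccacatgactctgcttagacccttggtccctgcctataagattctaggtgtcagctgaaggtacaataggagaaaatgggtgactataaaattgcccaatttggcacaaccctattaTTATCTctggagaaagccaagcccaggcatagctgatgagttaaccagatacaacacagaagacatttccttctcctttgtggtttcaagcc
GATA2 is a factor of basophils and mast cells, and GATA1 of eosinophils, mast cells and red cells. Such a word of letters began 31 bases before the start of Prss34, 46 bases before that of Cpa3 and 92 bases before that of Fcer1a, and the window of Mcpt8 held none. Of the 10 genes, 9 had a RefSeq promoter entry, and 5 of these 9 held a GATA word within 250 bases before and 50 bases after the start, as did 9778 of 32851 promoters (29.8%). The other 2 were Prg3, with the word 123 bases before the start, and Il5ra, with the word 74 bases before it. The word GAGGAAGT, bound by PU.1, was in 0 of 9 windows and in 3.20% of all promoters, and the shorter ETS core GAGGAA, which the longer word contains, was in those of Il5ra, Mcpt8 and Fcer1a and in 28.3% of all promoters. Ear1 and Ear2 were identical at 294 of 297 aligned bases of this window (99%), without a GATA word in either. These are matches of letters and do not show binding.

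Other genes of the same cells were taken from wider lists, in which 1 of 56 genes tested was called, beside 3.71% of all genes tested in both directions. Of 6 further eosinophil genes tested, 0 passed in either direction, with a median log2 fold change of -0.30. Among them Ear6 and Rnase2a, the latter named after its values were seen, were listed at 0 in Ob + Exe 1. Their log2 fold changes of -1.16 and -0.79 depend on the pseudocount, so this median is not read as a change. Siglecf, a surface lectin of mouse eosinophils, was at 3.95 and 3.09 FPKM in Ob and 3.92 and 3.803 FPKM in Ob + Exe. Ccr3, the eotaxin receptor, was at 3.25 and 4.42 FPKM in Ob and 3.27 and 2.84 FPKM in Ob + Exe. For these 2 surface markers the groups overlapped, and the log2 fold changes were 0.14 and -0.31. Alox15, a lipoxygenase, was at 2.69 and 3.08 FPKM in Ob and 2.53 and 4.87 FPKM in Ob + Exe. Ear6 was at 1.67 and 1.75 FPKM in Ob, was listed at 0 in Ob + Exe 1 and reached 6.46 FPKM in Ob + Exe 2, the same pattern as Prg3.

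Of 15 further basophil and mast cell genes tested, Hdc was called higher in Ob + Exe and 0 were called lower, with a median log2 fold change of 0.17. Hdc encodes histidine decarboxylase, which makes histamine, and immature myeloid cells of the marrow also express it. It was at 43.6 FPKM in Ob 1, 31.8 FPKM in Ob 2, 69.9 FPKM in Ob + Exe 1 and 94.9 FPKM in Ob + Exe 2. The groups did not overlap, and the log2 fold change was 1.13 with a standard error of 0.264 (limma unadjusted p = 0.00588, Benjamini-Hochberg adjusted p = 0.96). The call was lost without Ob 2, with a log2 fold change of 0.89, and without Ob + Exe 2, with 0.90. Fcer1g, the signalling chain that pairs with Fcer1a, was at 317 and 249 FPKM in Ob and 239 and 309 FPKM in Ob + Exe, and its log2 fold change was -0.05. Kit, the stem cell factor receptor of mast cells and blood progenitors, lay between 9.46 and 12.6 FPKM in the 4 libraries, and its log2 fold change was -0.18. Il1rl1, the IL-33 receptor, was at 8.16 and 7.61 FPKM in Ob and 7.04 and 10.3 FPKM in Ob + Exe. Among the 25 genes of this list, 8 were at 0 in all 4 libraries, and these include the mast cell tryptases Tpsb2 and Tpsab1 and the connective tissue mast cell receptor Mrgprb2, named after their values were seen. Ms4a2, the beta chain of the IgE receptor and likewise named after its values were seen, was at 9.87 and 3.21 FPKM in Ob and 8.74 and 5.27 FPKM in Ob + Exe.

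**Figure D4:**
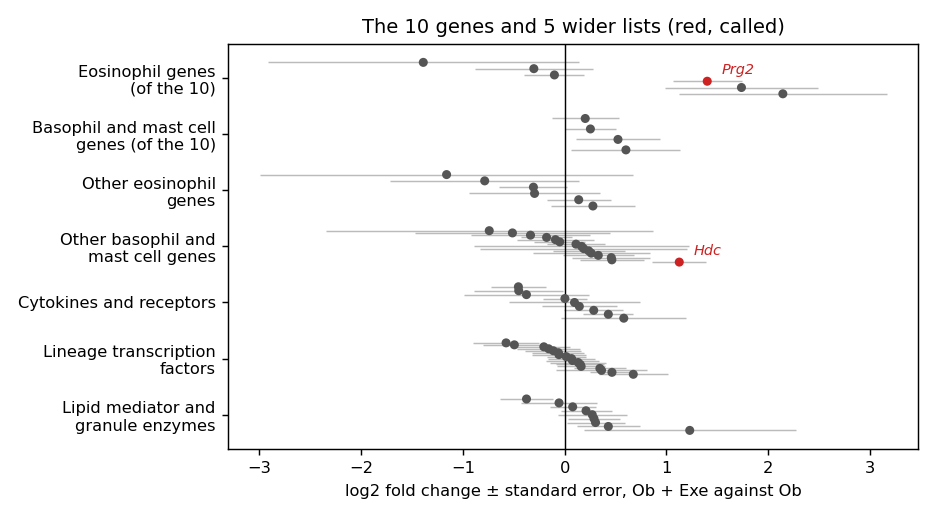
Log2 fold change of Ob + Exe against Ob for the 10 genes and each gene tested in the 5 wider lists, with bars of 1 standard error (n = 2 libraries a group). Called genes are red, Prg2 among the 10 and Hdc among the 56 of the wider lists, whose medians run from -0.30 for the eosinophil list to 0.27 for the lipid mediator and granule enzyme list. The median of -0.30 includes Ear6 and Rnase2a, which were listed at 0 in Ob + Exe 1 and whose values depend on the pseudocount.

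The regulators of these lineages did not pass the test in either direction. Of 17 lineage transcription factors 0 were called, with a median log2 fold change of 0.07. Gata1, the factor most needed for eosinophils, averaged 83.5 FPKM over the 4 libraries with a log2 fold change of 0.15, and it is also a factor of red cells, which fill the marrow. Cebpb, Spi1 and Xbp1, the other most abundant factors, averaged 80.5, 78.9 and 64.2 FPKM. Of 9 cytokines and receptors tested 0 were called, with a median log2 fold change of 0.10. Csf2rb, the signalling chain shared by the receptors for IL-5, IL-3 and GM-CSF, was at 29.1 and 23.0 FPKM in Ob and 30.5 and 39.9 FPKM in Ob + Exe. Its log2 fold change was 0.43, while those of Csf2ra, Crlf2 and Il3ra, the other most abundant genes of this list, were 0.003, -0.45 and -0.45. Both exercised libraries lay below both Ob libraries for Il3ra. Of 9 lipid mediator and granule enzyme genes 0 were called, and Srgn, the proteoglycan core that stores granule proteins, was at 286 and 168 FPKM in Ob and 269 and 325 FPKM in Ob + Exe.

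**Figure D5:**
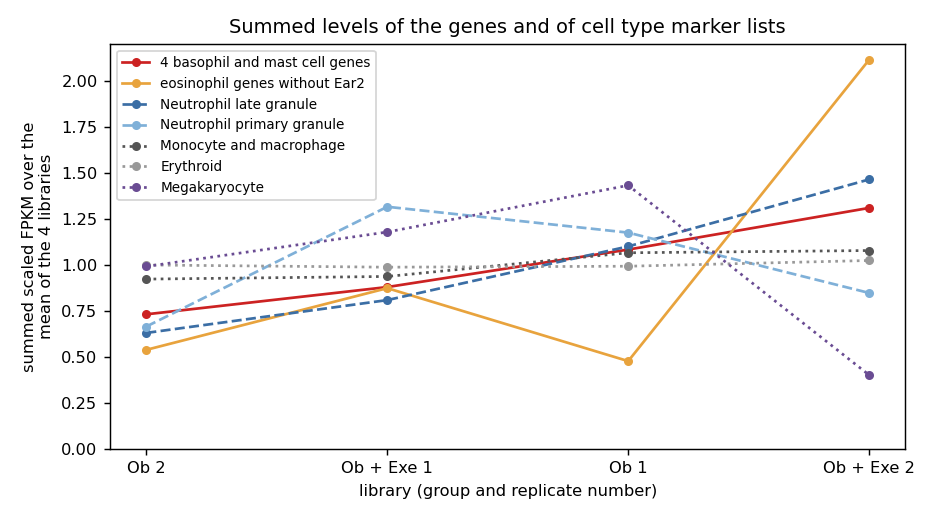
Summed scaled FPKM of 5 cell type marker lists in each library, divided by the mean of the 4 libraries for that list, beside the sums of the 5 eosinophil genes other than Ear2 and of the 4 basophil and mast cell genes. Lines join the libraries to guide the eye, the late neutrophil granule list ranges from 28492 FPKM in Ob 2 to 66225 FPKM in Ob + Exe 2, and the erythroid list stays between 30374 and 31494 FPKM.

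Other cell type lists moved between the libraries as well. The B cell list summed to 176 and 182 FPKM in Ob and 138 and 102 FPKM in Ob + Exe. Of its genes 2 of 5 were called lower, Cd79a and Igll1, beside 2.73% of all genes tested. The megakaryocyte list summed to 411 and 284 FPKM in Ob and 338 and 115 FPKM in Ob + Exe, so it was lowest in Ob + Exe 2, where the eosinophil sum was highest. Of its 4 genes 1, Gp1ba, was called lower, beside the same 2.73%. The monocyte and macrophage list summed to 536 and 464 FPKM in Ob and 471 and 542 FPKM in Ob + Exe. The primary granule list of neutrophil precursors summed to 1254 and 709 FPKM in Ob and 1404 and 904 FPKM in Ob + Exe, highest in Ob + Exe 1. Of this list, Prtn3 and Ms4a3 were highest in Ob + Exe 1, and Mpo, Elane and Ctsg in Ob 1. The eosinophil granule genes Prg2, Epx and Ear1 were highest in Ob + Exe 2. The T and NK cell list lay between 28.9 and 55.8 FPKM, the adipocyte list between 64.4 and 110 FPKM and the skeletal muscle list between 5.13 and 11.6 FPKM. Nkg7 at 27.6 to 52.3 FPKM held most of the T and NK cell sum, and Fabp4 at 57.5 to 104.5 FPKM most of the adipocyte sum. Col1a1, 1 of 7 genes of the stromal list, was called lower, beside 2.73% of all genes tested. Acta1, 1 of 3 genes tested of the muscle list, was called higher, beside 0.979%. In the other lists named here 0 genes were called. The part of cell composition in the Prg2 result was not tested.

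All 10 genes are annotated as protein-coding, and their coordinates were the same in GENCODE vM21. Together they have 18 annotated transcripts, 11 of which held 10% or more of the FPKM of their gene in at least 1 library. For Mcpt8 the leading transcript held 95.7% to 98.1% in each library. Ear1 overlaps 4 annotated genes, of which Ear-ps9, a pseudogene of the family, was at 0.435 FPKM in Ob + Exe 2 and at 0 in the other 3 libraries. Ear2 overlaps Gm49101 on the opposite strand, which was at 0 to 0.456 FPKM. Mcpt8 and Cpa3 each hold a microRNA gene on the same strand, Mir6949 at 0 to 1.10 FPKM and Mir7007 at 0 to 0.903 FPKM. These overlaps were taken over whole gene spans, introns included, so the transcripts need not share bases. The long span of Ear1 comes from ENSMUST00000179200.1, which held 0% of the FPKM of Ear1 in each library. Whether the quantification used the strand of the reads is not given in the sources used here. Where transcripts of such genes share bases, reads may thus not be told apart, whether on the same or on opposite strands.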

How the data were processed

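RNA-seq of whole tibial marrow was examined in 2 Ob and 2 Ob + Exe libraries. Per the labels, the authors used fastp, HISAT2, SAMtools and StringTie with GRCm38. The authors deposited 1 transcript table per library with coverage (a signal not normalized for depth) and FPKM. FPKM was summed over transcripts to genes, read equivalents were computed from coverage, length and 150 bases, and libraries were scaled by the median of ratios over genes that averaged 1 FPKM or more. With a pseudocount of 0.1 and a minimum mean of 0.1 FPKM, log2 values were tested in limma 3.58.1 (R 4.3.3) with an intensity trend, 2 residual and 3.73 prior degrees of freedom. The authors' DESeq2 test needs read counts, which were not used here. The limma fit was tested on simulated data. Sequences were aligned in Python 3.11.15.

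The genes and lists were chosen with earlier results of these data known. Named genes are the 10 genes, the called genes of each wider list and up to 4 of its genes with the highest mean FPKM, and exceptions are stated. All p-values were two-sided. The fit was repeated with quantile or no scaling, with changed pseudocounts and minimum levels, with voom weights on read equivalents, with a constant prior in place of the trend, with the replicate as a block and without each library. The 37 mitochondrial transcripts were listed at 0 throughout and were left aside. The 2 libraries a group limit the precision, and so does depth for the genes with few read equivalents.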

Additional observations from a re-analysis of the deposited data

How the results depend on the processing

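Prg2 kept its call in 11 of 14 alternatives, and its log2 fold change ran from 0.94 to 1.85 when 1 library was left out and from 1.32 to 1.43 otherwise, with a Benjamini-Hochberg adjusted p from limma of 0.123 to 1 over the alternatives. Without Ob + Exe 1 the log2 fold change was 1.85 for Prg2, 2.83 for Epx, 3.73 for Ear1 and 1.36 for Fcer1a. Without Ob + Exe 2 it was 0.94, 0.63, 0.55 and -0.16 for the same genes. For Prg3 it was -3.86 without Ob + Exe 2, where the remaining exercised library is listed at 0. In these fits the lone sample of a group is assumed to vary like the other group. The sign changed when 1 library was left out for Prg3 (-3.86 to 1.05, set by the pseudocount), Ear2 (-0.49 to 0.28), Mcpt8 (-0.013 to 0.50), Prss34 (-0.18 to 0.57), Cpa3 (-0.053 to 1.08) and Fcer1a (-0.16 to 1.36), none of which was called with all 4 libraries. Il5ra had no value at a minimum mean of 1 FPKM. Over all genes, 690 were called, against 267 at a minimum mean of 1 FPKM (fewer genes tested), 224 with a pseudocount of 1, 427 with limma voom, 1061 without the intensity trend and 746 to 1924 when 1 library was left out. Quantile normalization gave 246 higher and 416 lower calls against 182 and 508. The cause of these shifts was not tested.

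The replicate numbers are shared by the groups but no source describes a pairing, and replicate differences correlated at -0.106 across genes, which are not independent. With the replicate number as a block, 3 of the 10 genes were called higher (Prg2, Epx and Ear1), beside 231 of all 18596 genes tested. In either direction 776 of all genes were called, and 28 had a limma adjusted p under 0.05. With crossed numbers, chosen after seeing the data, 3 of the 10 genes were called higher, beside 241 of all 18596 genes tested. In either direction 782 of all genes were called, and 6 genes had a limma adjusted p under 0.05.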
